A study of Mus musculus with 5 samples.

Results

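The genes described here encode the subunits of the nuclear RNA polymerases I, II and III. They also encode the basal factors that bring polymerases I and III to their promoters and Maf1, a repressor counted with the polymerase III factors. They were taken by gene symbol from the array platform's annotation: Polr1, Polr2 and Polr3 symbols with a letter from a to l, and Rrn3, Ubtf, Taf1a, Taf1b, Taf1c, Taf1d, Brf1, Brf2, Bdp1 and Maf1. This gave 31 genes with 57 probes among 19057 genes with a symbol, and 26 of the 31 had a probe above background on at least 2 arrays and were tested, out of 10076 genes tested in all. The samples were total RNA of erythroblasts, red cell precursors that still have a nucleus, from the marrow of C57BL/6J mice, measured on 5 Illumina bead arrays. By genotype label, 2 arrays are Flvcr deleted and 3 are wild type. The Flvcr1 protein, which the labels name Flvcr, carries heme out of the cell. The sources used here do not give the promoter that drove the deletion, the age of the mice or the number of animals behind a sample. The p-values therefore measure the spread between these samples alone, and that spread may be technical.

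RNA polymerase I makes a single product, the precursor of the large ribosomal RNAs. Polymerase II makes messenger RNA, and polymerase III makes 5S ribosomal RNA, transfer RNAs and other short RNAs. Each enzyme has subunits of its own, polymerases I and III share a pair of subunits, and a further group is common to all of them, so that a gene named for polymerase II may serve every enzyme. Ribosome production is high in early erythroid precursors and is switched off as red cells mature.

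Signals are given as the deposited normalized values on a log2 scale, and a difference is always the mean of the arrays labelled Flvcr-deleted minus the mean of the arrays labelled wild-type. A gene was represented by its brightest probe, and a call is an adjusted p under 0.05 (limma, Benjamini-Hochberg over all 10076 genes). Of all genes tested, 39.3% were called, 21.8% as higher and 17.5% as lower, and the median difference was 0.01, or between -0.040 and 0.027 over the alternative settings. On every array the values ran from 6.35 to 15.06, and the background floor was at 6.83. The Flvcr1 probe read higher in the arrays labelled Flvcr-deleted (9.88 and 9.75) than in those labelled wild-type (8.16, 8.32 and 8.25), the opposite of a loss of signal (difference 1.57, SE 0.10, adjusted p = 1.36e-05). The sources used here do not say where this probe lies relative to the deleted part. It is therefore no check of the deletion, and every direction below rests on the labels. Of the 12 listed erythroblast markers, 11 had a probe, and 10 of these were above background on every wild-type array and 9 on both Flvcr-deleted arrays, while the Epb42 probe never was.

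Summed as linear signal, the erythroblast markers lay between 79582 and 84159 under the deleted label and between 106403 and 111027 under the wild-type label. Tested singly, 7 of 10 erythroblast markers were called lower and none higher, with a median difference of -0.78. Kel (-2.10) and Epor (-1.22) fell most, and Hba-a1 (-0.11) and Slc4a1 (0.03) did not pass. The sums for markers of other marrow cells moved in the same comparison. The 14 neutrophil markers summed to between 6357 and 10814 against between 31551 and 36408, the 8 mast cell, basophil and eosinophil markers to between 1548 and 1613 against between 5910 and 8790, and the 11 macrophage markers to between 2275 and 3168 against between 4328 and 5043. The 7 B cell markers summed to between 751 and 761 against between 1047 and 1378, the 6 T and NK cell markers to between 735 and 900 against between 1203 and 1738, and the 6 megakaryocyte markers to between 743 and 856 against between 1398 and 1474. Of these, Ms4a1, Cd3d, Ncr1, Gp1bb and Ms4a2 were not above background on any array. No B cell marker and 2 of the T and NK cell markers were above background on both Flvcr-deleted arrays. Such sums include background. Of the genes tested singly, 5 of 13 neutrophil, 2 of 10 macrophage and 3 of 5 B cell markers were called lower. In the T and NK list only Nkg7 of 3 was called lower (-1.80), and Cd3e differed by 0.24 without passing. Lower calls came to 2 of 3 for megakaryocytes and 6 of 7 in the mast cell list, where Gata2 rose (1.39). The called B cell markers Cd79b, Vpreb3 and Igll1, and Mcpt8 of the mast cell list, were above background on no Flvcr-deleted array. They entered the test only through the wild-type arrays, where they are high. The sum of the 7 progenitor markers went the other way, from between 1040 and 1119 in the wild-type arrays to between 1604 and 1801, with Hoxa9 not above background on any array. Gata2 is counted in this list as well. Only 2 of the 7 were above background on every wild-type array, and 3 of 4 tested were called higher. Meis1, 1 of these 3, and Flt3, which did not pass, were above background on no wild-type array. They entered the test only through the arrays where they are high. In bulk RNA, a change in the makeup of the cells and a change in RNA per cell cannot be told apart, and the part of these markers in the results below was not tested.

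The promoters of the polymerase I genes are shown first, because the subunits found only in polymerase I had the highest median difference of the sets, together with those of Rrn3, a polymerase I initiation factor that rose, and Polr2j, a polymerase II subunit whose groups overlapped. RefSeq promoter windows on GRCm38.p6, from 250 bases before the start to 50 bases from the start on, were found for 24 of the 31 genes, and 4 of these have several windows. The 250 bases before the start are printed 5′ to 3′ on the strand of the gene, with the E-box CACGTG and the ETS-type core CCGGAA (on either strand, TTCCGG on the other) in capitals. All 5 genes lie on the plus strand, at chr6:71908803-71909052 for Polr1a, chr2:129100746-129100995 for Polr1b, chr4:45018359-45018608 for Polr1e, chr16:13780449-13780698 for Rrn3 and chr5:136116441-136116690 for Polr2j.
Polr1a: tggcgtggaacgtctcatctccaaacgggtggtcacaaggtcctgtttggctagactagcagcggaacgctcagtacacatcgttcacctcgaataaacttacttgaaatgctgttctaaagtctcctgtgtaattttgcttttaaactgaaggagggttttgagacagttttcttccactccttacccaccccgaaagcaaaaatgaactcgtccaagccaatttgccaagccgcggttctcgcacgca
Polr1b: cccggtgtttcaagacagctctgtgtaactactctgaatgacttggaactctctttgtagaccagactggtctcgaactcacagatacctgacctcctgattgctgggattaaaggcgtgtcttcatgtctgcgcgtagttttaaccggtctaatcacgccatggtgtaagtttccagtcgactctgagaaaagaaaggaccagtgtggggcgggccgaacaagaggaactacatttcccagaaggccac
Polr1e: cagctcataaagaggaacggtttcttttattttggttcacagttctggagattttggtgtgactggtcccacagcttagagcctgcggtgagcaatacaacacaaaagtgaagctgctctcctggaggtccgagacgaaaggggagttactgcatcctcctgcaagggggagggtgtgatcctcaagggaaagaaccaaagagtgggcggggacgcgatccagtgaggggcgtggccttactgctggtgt
Rrn3: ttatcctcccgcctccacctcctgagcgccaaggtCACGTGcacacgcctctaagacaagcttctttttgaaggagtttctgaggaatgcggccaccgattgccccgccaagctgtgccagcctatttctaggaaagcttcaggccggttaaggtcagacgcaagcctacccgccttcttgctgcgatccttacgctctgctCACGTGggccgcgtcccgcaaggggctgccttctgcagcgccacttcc
Polr2j: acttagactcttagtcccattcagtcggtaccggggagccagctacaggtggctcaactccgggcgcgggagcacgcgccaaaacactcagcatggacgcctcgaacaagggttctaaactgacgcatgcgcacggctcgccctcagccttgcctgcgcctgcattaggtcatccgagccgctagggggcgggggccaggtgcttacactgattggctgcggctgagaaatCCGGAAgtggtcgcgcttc

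In the printed bases, Polr1a, Polr1b and Polr1e held neither motif, and Rrn3 held 2 E-boxes, at positions -215 and -48 from its start. Polr2j held 1 ETS-type core, at -19. Rrn3 also held the core at -4, where it crosses the start and so is not printed whole, and at 20. The E-box, a sequence that MYC with MAX and other basic helix-loop-helix proteins can bind, occurred in the windows of 4 of 24 genes (Polr2h, Polr3c, Polr3e and Rrn3), against 8.1% of all genes with a window. Of these 24, 5 were not tested, and among the 19 tested it was in 3, against 11.7% of the 8220 tested genes with a window. In Polr2h and Polr3e it lay after the start. CCGGAA occurred in 14 of 24, among them Polr2c, Polr2e, Polr2f, Polr2j, Polr3b and Polr3g, against 16.7% of all genes, and in 10 of the 19 tested, against 30.9% of tested genes. In Polr1e it lay after the start, on the other strand. AGATAA, which erythroid zinc finger factors can bind, was in 1 of 24 (Polr3k, which was tested) against 12.7% of all genes. That is 1 of the 19 tested, against 8.3% of tested genes. TATAAA was in 1 of 24 (Polr2c, which was not tested) against 15.7% of all genes. Every motif was sought on both strands. These are matches of letters in a window, and they show neither binding nor its absence. No motif holds another, although CCGGAA can overlap its own reverse, and the share over all 32851 windows was 7.2% for CACGTG, 14.9% for CCGGAA, 11.2% for AGATAA and 13.6% for TATAAA.

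In the arrays labelled Flvcr-deleted, 15 of the 26 tested polymerase genes rose, 2 fell and 9 did not pass the threshold, with a median difference of 0.36. All tested genes gave 21.8% higher and 17.5% lower. The rises came mostly from subunits, of which 13 of 18 rose and none fell, with a median of 0.50. Polr3d, 1 of the 13, entered the test only through the arrays where it is high. Of the 8 tested initiation factors and regulators, 2 rose and 2 fell, with a median of 0.03. At least 2-fold rises were seen in 6 genes, Polr1a, Polr1b, Polr1e, Polr1d, Polr2h and Polr2f, against 4.64% of all genes tested. These 6 are also the members found among the 5% of genes with the largest rises. In 19 genes every array labelled Flvcr-deleted was above every array labelled wild-type, and in 3 every one was below, against 32.3% and 26.8% of all genes, while 4 genes overlapped. Counts over the genes that passed the background filter are not counts over all 31.

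**Figure D1:**
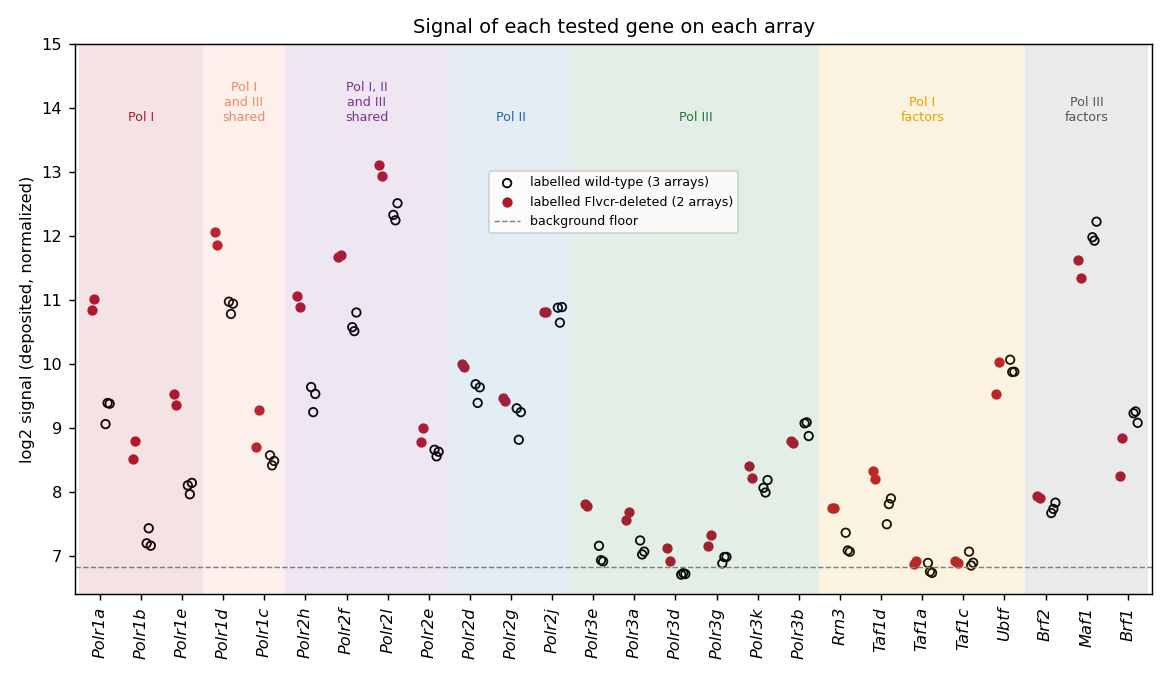
Log2 signal (vertical axis) of the 26 tested genes, grouped by the polymerase they belong to, with 2 arrays labelled Flvcr-deleted as filled points, 3 labelled wild-type as open points and the background floor of 6.83 as a dashed line. The groups are far apart for the 3 polymerase I subunits taken by symbol, as for Polr1a at 10.84 and 11.01 against 9.06 to 9.39. They overlap for Polr2j.

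Of the subunits found only in polymerase I, the 3 taken by symbol rose together, by 2.59-fold to 3.14-fold at their brightest probes. Polr1a, the largest subunit, which forms the catalytic centre with Polr1b, had signals of 10.84 and 11.01 under the deleted label and 9.06, 9.39 and 9.38 under the wild-type label. The groups lay more than a whole log2 unit apart. Their means of 10.93 ± 0.12 (SD, n = 2) and 9.28 ± 0.19 (SD, n = 3) gave a difference of 1.65 (SE 0.13, 3.14-fold; limma, adjusted p = 2.68e-05). It ranked 81st among the rises of all 10076 genes. Polr1b, the other catalytic subunit, read 8.52 and 8.80 against 7.20, 7.43 and 7.16. Both Flvcr-deleted arrays were again clear of every wild-type array, by a difference of 1.40 (SE 0.13, 2.63-fold; limma, adjusted p = 5.94e-05). Polr1e, also called PAF53, joins the polymerase through a heterodimer that helps initiation and elongation. It read 9.53 and 9.36 against 8.10, 7.96 and 8.14, with no overlap and a difference of 1.37 (SE 0.11, 2.59-fold; limma, adjusted p = 2.68e-05).

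The remaining polymerase I subunits carry other symbols in the platform annotation and lie outside the symbol rule, so they are given apart. Cd3eap, the partner of Polr1e, read 9.06 and 9.37 against 7.99, 8.20 and 8.06, higher in both Flvcr-deleted arrays (difference 1.14, SE 0.12; limma, adjusted p = 0.000141). Znrd1, the small subunit with the RNA cleavage function, read 10.57 and 10.34 against 9.61, 9.61 and 9.73, also without overlap (0.81, SE 0.11; limma, adjusted p = 0.00041). Twistnb, which belongs to the stalk, read 8.21 and 7.47 against 7.61, 7.30 and 7.22. Its groups overlapped and the difference of 0.46 (SE 0.21) missed the threshold (limma, adjusted p = 0.112). It rested on which Flvcr-deleted array was used, at 0.096 without replicate 1 and 0.83 without replicate 2. Each of these fits leaves 1 Flvcr-deleted array, so the gene's own spread comes from the wild-type arrays alone. The same holds for every fit below without a Flvcr-deleted array. Any fit with an array left out also has less power to call. With Cd3eap, Znrd1 and Twistnb, 5 of 6 subunits of polymerase I alone were higher, with a median difference of 1.25 and a smallest of 0.46.

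The pair shared by polymerases I and III, which together form an assembly platform, differed in size. Polr1d, the smaller partner, read 12.06 and 11.85 against 10.97, 10.78 and 10.94. The arrays of each group lay close together and the difference was 1.06 (SE 0.11, 2.08-fold; limma, adjusted p = 0.000119). Polr1c, its partner, read 8.69 and 9.28 against 8.57, 8.41 and 8.48. The groups did not overlap, but the Flvcr-deleted arrays differed from each other by more than replicate 1 differed from the wild-type arrays. The difference of 0.50 (SE 0.16, 1.41-fold) passed by little (limma, adjusted p = 0.0372). Without Flvcr-deleted replicate 2 it was 0.20 (adjusted p = 0.344), and it also missed the threshold without wild-type replicate 1 (0.54, adjusted p = 0.0811), 2 (0.46, adjusted p = 0.0858) or 3 (0.50, adjusted p = 0.0658). In each of these 4 fits 1 of the pair rose in place of 2.

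Of the subunits common to all the enzymes, 4 were tested, 3 rose and none fell. Polr2h, known as RPB8, read 11.06 and 10.88 against 9.64, 9.25 and 9.53. It was the largest rise of any gene with a Polr2 symbol, at 1.50 (SE 0.13, 2.83-fold; limma, adjusted p = 4.99e-05), and ranked 121st of all genes. Polr2f, known as RPB6, which helps to hold the enzyme's core and clamp together, read 11.68 and 11.70 against 10.57, 10.51 and 10.80. Its Flvcr-deleted arrays were nearly equal and lay above all wild-type arrays (1.06, SE 0.11, 2.08-fold; limma, adjusted p = 0.000131). Polr2l, known as RPB10, a small zinc-binding subunit, read 13.11 and 12.93 against 12.33, 12.24 and 12.51. It was also without overlap, at 0.66 (SE 0.12, 1.58-fold; limma, adjusted p = 0.00188). Polr2e, known as RPB5, read 8.78 and 8.99 against 8.66, 8.56 and 8.63. Its groups did not overlap, but the difference of 0.27 (SE 0.11) did not pass (limma, adjusted p = 0.072). Polr2k, the other subunit of this kind, was not analysed here.

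**Figure D2:**
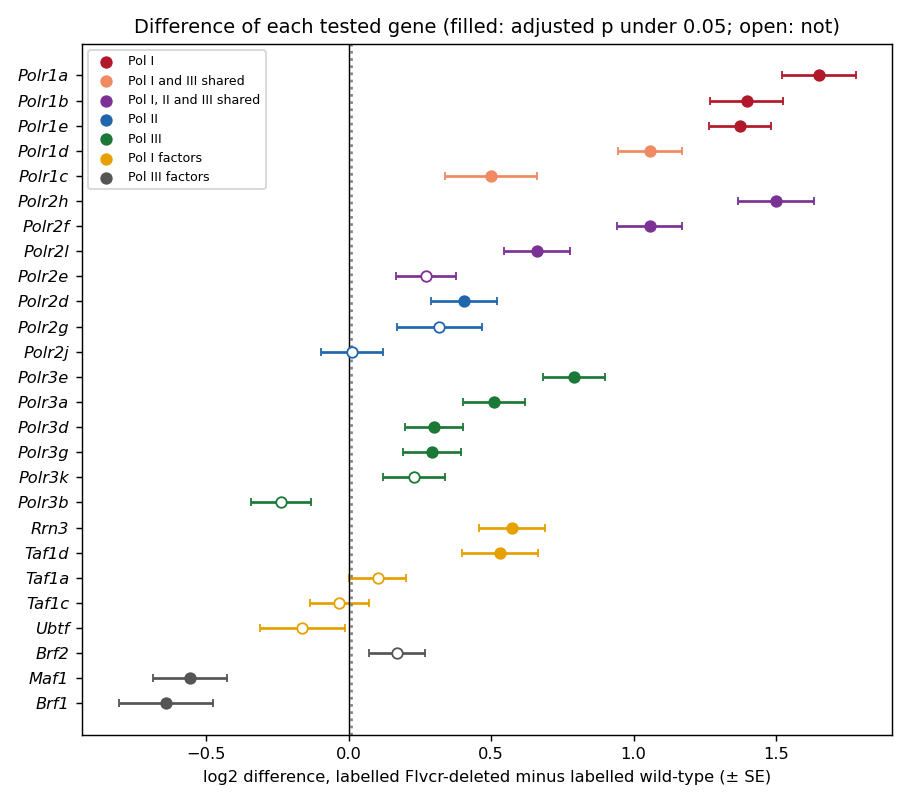
Difference in log2 signal (horizontal axis), labelled Flvcr-deleted minus labelled wild-type, with its standard error, for each tested gene, coloured by polymerase. Filled points passed at an adjusted p under 0.05 and open points did not, the solid line is at 0 and the dotted line at the median of all genes, 0.01. The 3 polymerase I subunits taken by symbol lie between 1.37 and 1.65, and Maf1 and Brf1 lie at -0.56 and -0.64.

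Among subunits found only in polymerase II, the differences ran from 0.01 to 0.40. Of the 4 with a probe, 3 were tested and 1 rose, a share to be set beside the 21.8% of all genes, and their median difference was 0.32. Polr2d, known as RPB4, which forms the stalk with Polr2g, read 10.003 and 9.945 against 9.683, 9.391 and 9.635. The groups did not overlap and the difference was 0.40 (SE 0.11, 1.32-fold; limma, adjusted p = 0.0212). Its call was lost without Flvcr-deleted replicate 1 (0.38, adjusted p = 0.115) or 2 (0.43, adjusted p = 0.0699), and then no subunit of polymerase II alone was called. Polr2g, known as RPB7, read 9.47 and 9.42 against 9.31, 8.81 and 9.25, a difference of 0.32 (SE 0.15) that did not pass (limma, adjusted p = 0.13). Without wild-type replicate 2, the lowest, the set's median was 0.16 in place of 0.32. Polr2j, known as RPB11, an assembly platform subunit and the polymerase II counterpart of Polr1d, read 10.82 on both Flvcr-deleted arrays and 10.88, 10.64 and 10.89 on the wild-type arrays. The groups overlapped, at a difference of 0.01 (SE 0.11; limma, adjusted p = 0.954), which was below 0 under other scalings (-0.038 with array medians subtracted and -0.027 with cyclic loess) and at -0.068 without wild-type replicate 2. The probe of Polr2c, known as RPB3, the counterpart of Polr1c, was not above background on any array, and the catalytic subunits Polr2a and Polr2b and the subunit Polr2i were not analysed here.

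Set side by side by their place in the enzyme, the assembly platform subunits of polymerases I and III, Polr1d and Polr1c, were higher by 1.06 and 0.50. In polymerase II, Polr2j, the counterpart of Polr1d, differed by 0.01, and Polr2c, that of Polr1c, was not tested. The stalk subunits of polymerase II, Polr2d and Polr2g, differed by 0.40 and 0.32, and that of polymerase I, Twistnb, by 0.46. These are differences within a probe between groups. The differences were not tested against each other, and the levels of different probes cannot be compared.

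Among subunits found only in polymerase III, 6 of the 8 with a probe were tested, 4 rose and none fell, with a median difference of 0.30. Of all genes tested, 21.8% were higher and 17.5% lower. Polr3d, 1 of the 4, was above background on no wild-type array and entered only through the arrays where it is high. Polr3e, known as RPC5, had the largest rise. It read 7.81 and 7.77 against 7.16, 6.93 and 6.91, without overlap, at 0.79 (SE 0.11, 1.73-fold; limma, adjusted p = 0.000501). Polr3a, the largest catalytic subunit, read 7.56 and 7.68 against 7.24, 7.02 and 7.07. The groups were again apart, at 0.51 (SE 0.11, 1.42-fold; limma, adjusted p = 0.0051). The mean of its kept probes gave 0.24 and lost the call (adjusted p = 0.0629). Both genes lay near the dim end of the arrays, where a fold understates a change if the values hold background.

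Polr3d and Polr3g passed by little. Polr3d, known as RPC4, the partner of Polr3e, read 7.12 and 6.91 against 6.71, 6.73 and 6.72. No wild-type array was above background for it, and the Flvcr-deleted arrays lay at least 1.14-fold higher (difference 0.30, SE 0.10; limma, adjusted p = 0.0453), so it entered the test only through the arrays where it is high. This bound compares the Flvcr-deleted mean with the floor. Polr3g, known as RPC7, is one of a pair of alternative subunits, the one abundant in stem cells, and read 7.16 and 7.32 against 6.88, 6.98 and 6.98. The groups lay close but did not overlap, and the difference was 0.29 (SE 0.10; limma, adjusted p = 0.047). Polr3gl, its alternative, was not analysed here.

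Leaving out single arrays ended both calls. Without Flvcr-deleted replicate 1 Polr3d was at 0.20 (adjusted p = 0.344), and without wild-type replicate 1, 2 or 3 its adjusted p was 0.104, 0.0752 and 0.0779. Polr3g missed the threshold without any single array, with adjusted p = 0.0714 and 0.311 without Flvcr-deleted replicates 1 and 2, and 0.125, 0.0676 and 0.0643 without wild-type replicates 1, 2 and 3. The count of polymerase III subunits that rose was 2 without Flvcr-deleted replicate 1 or any of the wild-type arrays, and also when probes had to be above background on all 5 arrays or array medians were subtracted.

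Polr3b, the other catalytic subunit, went against the rest of its enzyme in sign. It read 8.79 and 8.76 against 9.07, 9.09 and 8.87, every Flvcr-deleted array below every wild-type array, but its difference of -0.24 (SE 0.11) did not pass (limma, adjusted p = 0.112). Without wild-type replicate 3 it was -0.31 and passed (adjusted p = 0.0491). At their brightest probes, the catalytic pair of polymerase III thus read 0.51 and -0.24, and that of polymerase I 1.65 and 1.40. Other kept probes gave -0.03 for Polr3a and 0.83 and 0.68 for Polr1a, and the contrast was not tested. Polr3k, known as RPC10 or RPC11, which cleaves RNA and serves termination, read 8.40 and 8.22 against 8.06, 7.99 and 8.19. Its difference was 0.23 (SE 0.11; limma, adjusted p = 0.137), and the nearest arrays of the groups were almost equal. Probes of Polr3c and Polr3f, which belong with Polr3g or Polr3gl to a subcomplex for initiation, did not pass the background filter. Crcp, known as RPC9, a polymerase III subunit outside the symbol rule, read 9.97 and 9.84 against 9.49, 9.50 and 9.72. Its rise of 0.34 (SE 0.11; limma, adjusted p = 0.0393) was lost when an array was left out, with adjusted p = 0.235 and 0.0739 without Flvcr-deleted replicates 1 and 2, and 0.119 and 0.0918 without wild-type replicates 1 and 2. The probe of Polr2m, which associates with polymerase II, read between 6.62 and 6.87 over all arrays and did not pass the filter.

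**Figure D3:**
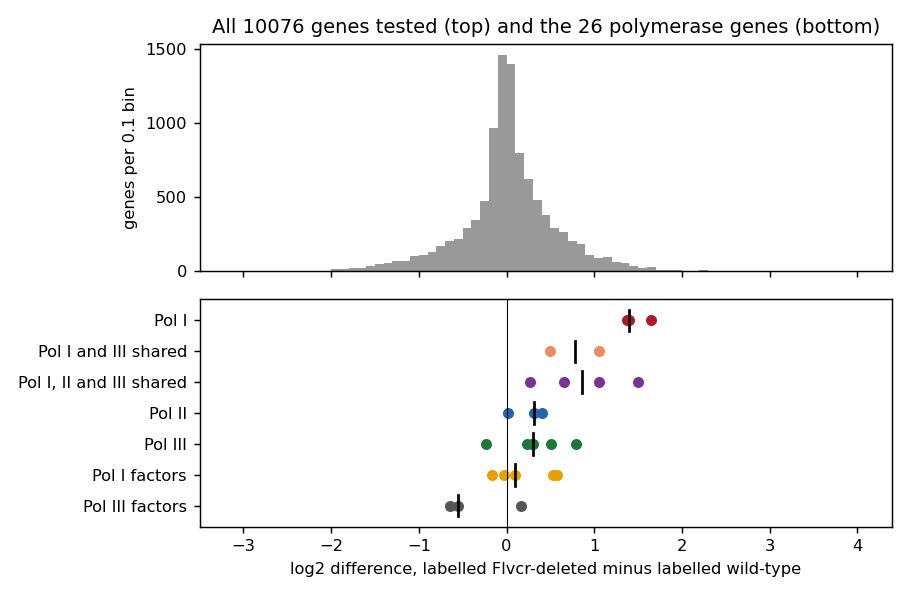
Number of genes by log2 difference, in bins of 0.1, for all 10076 genes tested (top), and the 26 polymerase genes by set on the same horizontal axis (bottom), with a vertical bar at the median of each set. The medians run from 1.40 for the 3 polymerase I subunits taken by symbol to -0.56 for the polymerase III factors. The latter is the value of the repressor Maf1. All genes have their median at 0.01.

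The factors that act with polymerase I differed less in size than its 3 subunits taken by symbol, a contrast that was not tested. Of 5 tested, 2 rose and none fell, with a median of 0.10. Rrn3, also called TIF-IA, which links the polymerase to the promoter complex in response to growth signals, read 7.74 on both Flvcr-deleted arrays and 7.36, 7.09 and 7.06 on the wild-type arrays. The groups were apart and the difference was 0.57 (SE 0.12, 1.49-fold; limma, adjusted p = 0.00411). Taf1d, a subunit of the promoter selectivity factor SL1, read 8.33 and 8.20 against 7.50, 7.81 and 7.90. Its difference of 0.53 (SE 0.13, 1.45-fold; limma, adjusted p = 0.012) did not pass without Flvcr-deleted replicate 1 (0.46, adjusted p = 0.0818), and then Rrn3 was the only factor of the set called. The other SL1 subunits were dim. Taf1a was above background on 1 of 3 wild-type arrays and Taf1c on every array, their groups overlapped, and they differed by 0.10 (SE 0.10; limma, adjusted p = 0.485) and -0.03 (SE 0.10; limma, adjusted p = 0.856). Taf1c was at 0.033 without wild-type replicate 1. No array was above background for Taf1b.

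Ubtf, or UBF, the protein that coats active ribosomal genes, read 9.53 and 10.02 under the deleted label and 10.07, 9.87 and 9.88 under the wild-type label. Its Flvcr-deleted arrays lay on either side of a pair of wild-type arrays. The difference of -0.16 (SE 0.15) did not pass (limma, adjusted p = 0.457), and its sign depended on the probe, since another, nearly as bright, gave 0.20 (SE 0.13) and a dim one -0.02. It also depended on 1 array, at 0.084 without Flvcr-deleted replicate 1.

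Among the sets of members, falls were called only for the polymerase III factors. Maf1, the repressor that shuts polymerase III down under stress and starvation, read 11.63 and 11.35 under the deleted label and 11.98, 11.93 and 12.22 under the wild-type label. Every Flvcr-deleted array was below every wild-type array. The means of 11.49 ± 0.20 (SD, n = 2) and 12.04 ± 0.16 (SD, n = 3) gave a difference of -0.56 (SE 0.13; limma, adjusted p = 0.00845). Without Flvcr-deleted replicate 2 it was -0.42 (adjusted p = 0.0808). Brf1, a subunit of the initiation factor TFIIIB at 5S and transfer RNA genes, read 8.25 and 8.85 against 9.23, 9.26 and 9.08. It fell by 0.64 (SE 0.17; limma, adjusted p = 0.0134), with a wide gap between its Flvcr-deleted arrays. Without Flvcr-deleted replicate 1 the difference was -0.34 (adjusted p = 0.112), and it missed the threshold without wild-type replicate 1 (-0.62, adjusted p = 0.0598). In each of these 3 fits 1 of the set fell in place of 2. Brf2, which takes the place of Brf1 at promoters such as that of the U6 gene, read 7.93 and 7.90 against 7.67, 7.73 and 7.83. Its groups did not overlap, but the difference of 0.17 (SE 0.10) did not pass (limma, adjusted p = 0.219). The probe of Bdp1, the TFIIIB subunit that acts with either, was not above background on any array.

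Without wild-type replicate 3, when Polr3b passed as well, 3 members were lower in place of 2. Over the members, the SD of the wild-type arrays ran from 0.011 to 0.268, with a median of 0.118, and that of the Flvcr-deleted arrays reached 0.424 (n = 3 and 2). The 5 genes that did not pass the filter had 6 probes, with signals between 6.51 and 6.84.

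Probes of the same gene agreed in sign in 7 of the 9 genes with several kept probes, and the size varied. The 3 kept probes of Polr1a gave 1.65, 0.83 and 0.68, each past the threshold among all kept probes (limma, adjusted p = 2.08e-05, 0.000209 and 0.000704). The brightest gave the largest difference, so the fold of Polr1a depends on the probe. Both probes of Polr2h passed, at 1.50 and 0.75, and Polr1d had a pair at 1.06 and 1.02 and a dim one at 0.13. Polr3a gave 0.51 and, from a dim probe, -0.03. Taf1d gave 0.53 and 0.35, and only the first passed. Polr3k gave 0.23 and 0.0012, and neither passed. The 4 probes of Polr2d lay between 0.23 and 0.40, and 1 of them passed. Pseudogene copies of Polr2d are annotated, and whether its probes also read them was not tested. The mean of a gene's probes gave 1.06 for Polr1a, 1.13 for Polr2h and 0.74 for Polr1d, all still past the threshold.

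**Figure D4:**
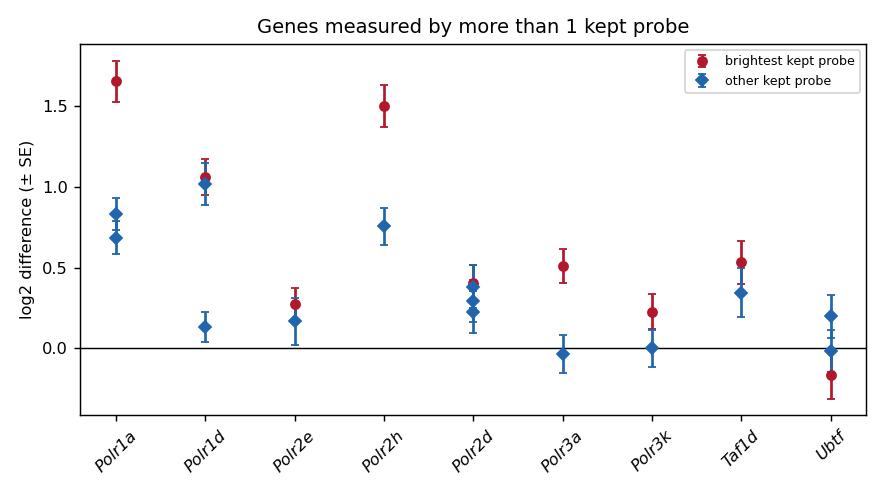
Log2 difference with its standard error (vertical axis) for each kept probe of the 9 genes with more than 1, with the brightest probe as a circle and the others as diamonds. Polr1a spans 0.68 to 1.65, and the probes of Polr3a and Ubtf fall on both sides of 0.

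The other genes of transcription by these enzymes were taken from lists chosen with earlier results of these data known. For comparison with each list, 21.8% of all genes tested were higher and 17.5% lower. The polymerase assembly and import list, chaperones and GTPases that build the enzymes in the cytoplasm and carry them into the nucleus, had 12 of 16 tested genes higher and none lower, with a median of 0.51. It was led by the AAA ATPase Ruvbl2 (1.47, SE 0.11), the GTPase Gpn1 (1.22, SE 0.12) and the prefoldin-like Pdrg1 (0.97, SE 0.14). Of 11 tested genes of polymerase I chromatin and termination, 5 rose and 2 fell (median 0.08), with Mybbp1a at 1.81 (SE 0.13), the helicase Ddx21 at 1.60 (SE 0.10) and nucleophosmin, Npm1, at 1.32 (SE 0.11). Of the falls there, 1 was called if an array was left out that was Flvcr-deleted replicate 2 or one of wild-type replicates 1 and 2.

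For polymerase III, the list of TFIIIA, TFIIIC and SNAPc had 3 of 11 higher and 1 lower (median 0.23). These shares were 27.3% and 9.09%, against 21.8% and 17.5% of all genes. Snapc4, of the complex for small nuclear RNA genes, rose by 1.08 (SE 0.12) and Gtf3a, the 5S gene factor TFIIIA, by 0.97 (SE 0.11), while Gtf3c2 of TFIIIC fell by 0.72 (SE 0.11). With normexp background correction, or with an intensity trend and robust variances, 5 of this list were higher. Of 9 genes that handle its transcripts, 5 rose and none fell (median 0.39), among them the RNase P proteins Pop4 (1.36, SE 0.10), Rpp14 (0.72, SE 0.10) and Rpp30 (0.56, SE 0.11). Pop1, one of the 5 and the gene at the median, was above background on no wild-type array and so entered only through the arrays where it is high. With the floor required on all 5 arrays, 4 rose and the median was 0.51, and with no filter the median was 0.23.

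Most of the tested general factors of polymerase II rose. Of 13 tested, 9 were higher and 1 lower (median 0.47), led by Gtf2h1 of TFIIH (1.27, SE 0.11), Gtf2e1 of TFIIE (1.18, SE 0.13) and Gtf2f2 of TFIIF (1.08, SE 0.13). Without wild-type replicate 1 none of the list was lower. Of 18 elongation genes 1 was higher and 3 were lower (5.56% and 16.7%, median -0.01), against 21.8% and 17.5% of all genes. Cyclins T2 and T1 of the P-TEFb kinase, Ccnt2 (-1.97, SE 0.24) and Ccnt1 (-0.66, SE 0.12), and Nelfcd of the pausing factor NELF (-0.94, SE 0.09) fell. The count of rises was 0 without wild-type replicate 1 and 2 without wild-type replicate 2. The Mediator, which links activators to polymerase II, had 6 of 27 higher and 4 lower (median -0.14). These shares, 22.2% and 14.8%, lay near the 21.8% and 17.5% of all genes. The called genes of largest size were Med6 (-1.05, SE 0.14), Med12 (-0.89, SE 0.13) and Med30 (0.59, SE 0.14). Of the mitochondrial polymerase and its factors, 4 of 8 were higher and 1 lower (median 0.42), led by Tfb2m (0.94, SE 0.11), Tefm (0.91, SE 0.10) and the polymerase Polrmt (0.76, SE 0.11). With no filter on dim probes the median was 0.21 and none was called lower. The fall, of Tfb1m, also lost its call if the array left out was Flvcr-deleted replicate 2 or one of wild-type replicates 1 and 3.

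Among regulators known to act on polymerases I and III, 2 of 11 were higher and 5 lower (median -0.16). That is 18.2% and 45.5%, against 21.8% and 17.5% of all genes. Myc, which stimulates both enzymes, read 7.78 and 7.98 against 7.07, 7.01 and 6.93, with no overlap (0.88, SE 0.11; limma, adjusted p = 0.000236). Its antagonists Mxd3 (-2.08, SE 0.18) and Mxd1 (-1.26, SE 0.16) fell, as did the pocket protein Rbl1 (-0.95, SE 0.13). Of the rises, 1 was called without either Flvcr-deleted array and without wild-type replicate 1.

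**Figure D5:**
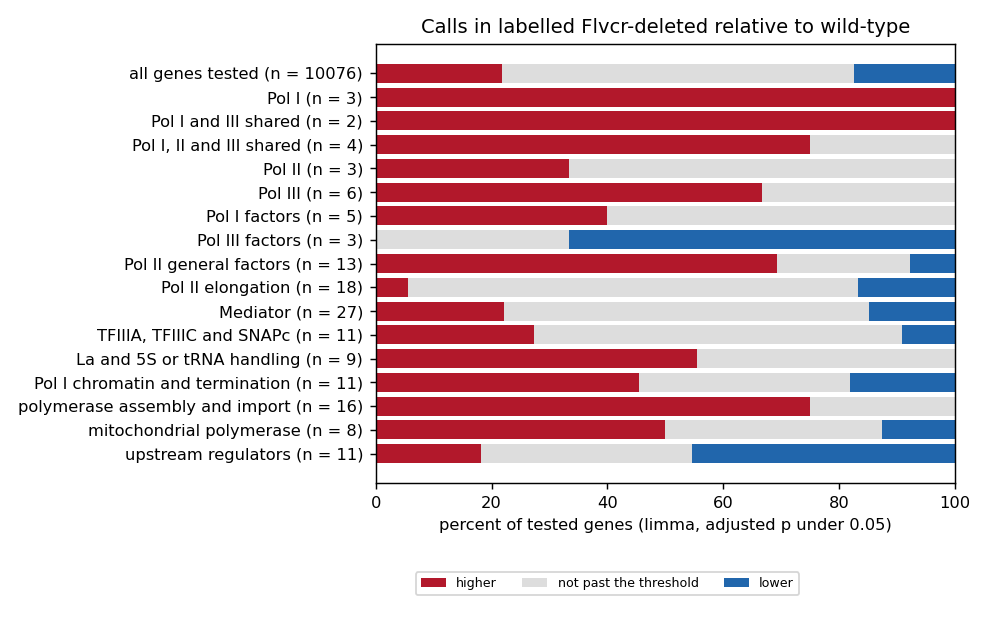
Share of the tested genes of each list (horizontal axis, percent) that were higher, not past the threshold or lower in the arrays labelled Flvcr-deleted, with the number tested in brackets and all genes in the top row. All 3 polymerase I subunits taken by symbol were higher, and 2 of the 3 polymerase III factors, Brf1 and the repressor Maf1, lower. All genes had 21.8% higher and 17.5% lower.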

How the data were processed

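The values used were the authors' deposited log2 signals of 5 arrays. The labels state no scale or software; the shared distribution of the arrays is read as quantile normalization, and the scale as log2 because the highest value is then 34186 in linear units, within the range of a scanner. The sources do not say whether background was subtracted. Per the labels' protocols, cRNA was biotinylated with an Ambion MessageAmp kit. A table of 10 columns of signals and detection p-values was not used, since its column names match no sample's labels.

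The floor, 6.83, was set 1.64 spreads (0.0824 each, from the values below the mode) above the mode of the signals (6.70). Of 45281 probes, 34885 had 1 platform symbol, 18 several and 10378 none; 15208 with 1 symbol passed the floor on 2 arrays or more, and the brightest represented each gene. Differences were fitted with limma 3.58.1 in R 4.3.3 (genotype only, two-sided, 3 residual and 5.64 prior degrees of freedom), which was tested on simulated data. The number of arrays limits the precision.

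Members and lists were chosen with earlier results of these data known. Values per array are given for called members of at least 0.5 on the log2 scale and for any against its set; up to 3 called genes of largest size are named per other list, and Flvcr1 and the subunits under other symbols always. Myc, Tfb1m and the values per array of further members were added after they were seen. The alternatives were background, probe filter, probes of a gene, variance model, scaling, each array left out and a replicate block.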

Additional observations from a re-analysis of the deposited data

How the results depend on the processing

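Of the 17 polymerase genes called, 9 passed in all 14 alternatives (Polr1a, Polr1b, Polr1d, Polr1e, Polr2f, Polr2h, Polr2l, Polr3e and Rrn3), 8 lost the call in at least 1, and none changed sign. With normexp background correction the median was 1.67 for polymerase I and 0.43 for polymerase III. With the floor required on all 5 arrays, 2 polymerase III subunits rose and the median of the polymerase I factors was 0.25. With no filter on dim probes, 1 of the subunits shared by polymerases I and III rose and the polymerase II median was 0.17, and averaging the probes of each gene gave a shared median of 0.62. With array medians subtracted, 1 shared and 2 polymerase III subunits rose.

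Leaving out 1 array at a time gave 11 to 12 members higher in place of 15, 1 to 3 members lower, 1 to 2 subunits shared by polymerases I and III higher, 0 to 1 of polymerase II higher, 2 to 3 of polymerase III higher and 0 to 1 lower, 1 to 2 polymerase I factors higher and 1 to 2 polymerase III factors lower. The medians then ran from 1.39 to 1.54 for polymerase I and from 0.16 to 0.41 for polymerase II. No called value changed sign. Fits without a Flvcr-deleted array rest on 1 such array, and their calls are limited by that. Signs turned for the median of all genes (-0.0017 with no filter, -0.040 with array medians subtracted and -0.00043 with cyclic loess) and for Polr2j (-0.038 with array medians subtracted, -0.027 with cyclic loess and -0.068 to 0.054 by array left out), Ubtf (0.0062 with the mean of its probes and -0.41 to 0.084), Taf1c (-0.076 to 0.033) and the median of the polymerase II elongation list (0.0050 with the floor on all arrays and -0.051 to 0.050). The causes were not tested.

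Replicate numbers are shared by the groups, but the labels do not say what a number marks, so same-numbered arrays were not taken as pairs. The deviations of same-numbered arrays from their group means correlated at -0.03 and 0.10. With 2 Flvcr-deleted arrays, the deviations of 1 mirror those of the other, so these correlations cannot decide whether the arrays are paired. With the replicate block, 2 polymerase II subunits were higher in place of 1. Polr2g (0.38, adjusted p = 0.0317) and Twistnb (0.39, adjusted p = 0.0288) passed and Polr3d did not (0.30, adjusted p = 0.0658). Wild-type replicate 3 has no Flvcr-deleted array of its number, so the block's differences come from replicates 1 and 2 alone. Signals near the floor limit what the dim polymerase III and SL1 probes can show.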
